A study of Arabidopsis thaliana with 12 samples.

Results

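The genotype by nitrogen interaction in small RNA of Arabidopsis thaliana seedlings is the nitrogen effect in the mutant dcl4-2 minus the nitrogen effect in wild type Col-0. All 12 of 12 small RNA libraries enter it, with 3 libraries in each of 4 groups. Each genotype was grown on full MS medium and on MS without nitrogen (MS-N), and Col-0 and dcl4-2 are called the wild type and the mutant below. All were whole seedlings 10 days old, every dcl4-2 library carries the same single allele, and no rescued or independent dcl4 line was among the groups. The quantity was computed on a log2 scale as (dcl4-2 MS-N minus dcl4-2 MS) minus (Col-0 MS-N minus Col-0 MS). A value of 0 means that the effects of genotype and medium multiply, and a positive value means more small RNA in dcl4-2 on MS-N than that product. The term product below stands for this level, computed from the group means as dcl4-2 on MS times Col-0 on MS-N divided by Col-0 on MS. The question is where loss of DCL4 and nitrogen deprivation together depart from their single effects.

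DICER-LIKE 4 (DCL4) cuts long double-stranded RNA into 21-nt small interfering RNAs (siRNAs), among them the trans-acting siRNAs (tasiRNAs) that direct silencing of other messengers. Where DCL4 is missing, DCL2 can process the same precursors into 22-nt siRNAs, which can start further rounds of siRNA production on their targets. Nitrogen is a main nutrient of plants, and nitrate is taken into metabolism by nitrate reductase, of which NIA2 is the main form in Arabidopsis. Small RNA reads at a gene measure small RNA made from or matching that gene and not the amount of its messenger.

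The libraries held 4515437 to 7270637 reads, with at least 183 reads behind every class value. Class values are rpm, reads scaled to a fixed library size, and locus values are normalized reads recovered for each library from the deposited group means. Values are given in the order of the replicate numbers for classes and in order of size factor for loci, and the 2 orders cannot be linked. The first replicate of dcl4-2 on MS stood apart from the other dcl4-2 libraries on MS, with 26469 rpm of 22-nt intergenic reads against 66132 and 57302 rpm. Its 21-nt reads from transposable elements were 17992 rpm against 10067 and 10354 rpm. DCL4 itself gave 2.92, 3.16, 1.11 and 2.31 normalized reads at 21 nt and 4.56, 5.05, 1.04 and 7.17 at 22 nt as group means. Where 4 means are listed, the first pair is the wild type and the second pair the mutant, MS before MS-N. Neither interaction at DCL4 passed (adjusted p = 0.856 and 0.175, limma), and small RNA reads at the locus do not check the mutation. In whole seedlings, fewer cells of a type and less RNA per cell cannot be told apart.

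Among 28 class values, 14 feature classes at 2 lengths, 15 had an interaction past an adjusted p of 0.05 (limma with Benjamini-Hochberg adjustment over the 28). This is 53.6% of the values tested, 13 positive (46.4%) and 2 negative (7.14%). Reads from exons, tRNA, rRNA, snoRNA, 5′ UTRs and 21-nt intergenic reads lay above the product in dcl4-2 on MS-N. Reads of 22 nt from transposable elements and tasiRNAs lay below it.

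**Figure D1:**
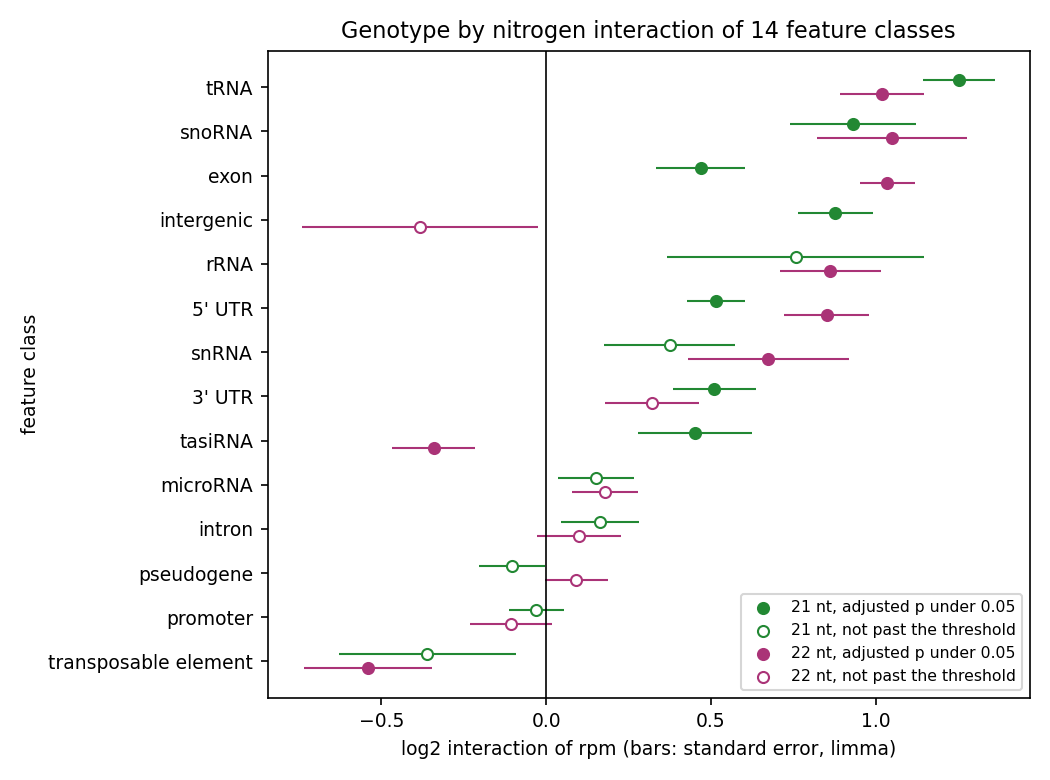
Log2 interaction of 14 feature classes (x axis, no unit) at 21 and 22 nt, with bars for the standard error from limma over 12 libraries and filled points for an adjusted p under 0.05. The tRNA class at 21 nt has the highest value (1.25) and the transposable element class at 22 nt the lowest (-0.54).

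Exons held the interaction with the smallest adjusted p. At 22 nt exon reads were 8749.9, 8599 and 8088 rpm on MS against 10023, 10025 and 9645 on MS-N in the wild type, and 11485, 10662 and 10908 on MS against 25500.3, 26313 and 27255 on MS-N in the mutant. All 3 dcl4-2 libraries on MS-N stood above every other library, while the other 3 groups differed from each other by less and did not overlap. The nitrogen effect was 1.17-fold in the wild type against 2.39-fold in the mutant. The observed mean of 26356 ± 878 rpm was 2.05 times the product of 12862 rpm (log2 interaction 1.03, SE 0.0832, adjusted p = 2.01e-06). It was positive and past the threshold in every alternative run. At 21 nt exon reads were 33031, 40031 and 32646 rpm on MS against 59443, 55156 and 49442 on MS-N in the wild type, and 6159, 5529 and 5730.4 on MS against 11969.6, 12289 and 13199 on MS-N in the mutant. Both genotypes rose on MS-N without overlap, dcl4-2 from the lower level, and the interaction was positive on the log2 scale (log2 interaction 0.47, SE 0.135, adjusted p = 0.013). On the linear scale the same comparison took the opposite sign, since Col-0 gained more rpm. The observed mean minus the sum of the single effects was -12765 rpm (adjusted p = 0.0131, limma). The tasiRNA class is taken here to overlap the exon class. Its 21-nt means went from 26379 rpm on MS to 45790 on MS-N in the wild type and from 1128 to 2675 in the mutant. The exon means went from 35236 to 54680 rpm and from 5806 to 12486 in the same order. Exon reads without tasiRNAs were not tested at either length, so neither the log2 nor the linear value describes them.

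Structural RNA classes changed in opposite directions in the genotypes or by unequal folds. Transfer RNA, which carries amino acids to the ribosome, gave 21-nt reads of 3441, 3089.8 and 3218 rpm on MS against 1884, 1994 and 2124 on MS-N in the wild type, and 2565, 2607 and 2605 on MS against 3655, 3560.5 and 4219 on MS-N in the mutant. On MS-N the Col-0 libraries were below all Col-0 libraries on MS, and the dcl4-2 libraries were above all dcl4-2 libraries on MS. The tRNA reads at 21 nt therefore fell in Col-0 (adjusted p = 6.17e-06) and rose in dcl4-2 (adjusted p = 2.69e-05), with an interaction past the threshold in limma (log2 interaction 1.25, SE 0.110, adjusted p = 2.43e-06). At 22 nt the tRNA reads were 4981, 4716 and 4771 rpm on MS against 3141, 2495 and 2559 on MS-N in the wild type, and 4202, 3747 and 3763 on MS against 4267, 4383 and 4709 on MS-N in the mutant. Only the fall in Col-0 passed here, with an adjusted p of 0.0679 for dcl4-2, and the interaction passed in limma (log2 interaction 1.02, SE 0.128, adjusted p = 5.74e-05). Ribosomal RNA at 22 nt had the same form, with 2202, 1651 and 2167 rpm on MS against 1419, 1425 and 1518 on MS-N in the wild type, and 1639.8, 1943 and 1890.1 on MS against 2435, 2287 and 2528 on MS-N in the mutant. Its reads fell in Col-0 and rose in dcl4-2 without overlap within a genotype (log2 interaction 0.86, SE 0.154, adjusted p = 0.00062), whereas at 21 nt the replicates of rRNA overlapped and the interaction of 0.76 had an adjusted p of 0.128.

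Small nucleolar RNA (snoRNA), which guides chemical modification of rRNA, rose on MS-N in both genotypes and by more in dcl4-2. At 21 nt the snoRNA reads were 239.6, 227 and 282 rpm on MS against 574, 597 and 653 on MS-N in the wild type, and 285, 195 and 201 on MS against 1032, 987 and 1108 on MS-N in the mutant, and the MS-N libraries of dcl4-2 were above all others. The nitrogen effect was 2.44-fold in the wild type against 4.59-fold in the mutant (log2 interaction 0.93, SE 0.191, adjusted p = 0.00169). At 22 nt the folds were 2.34 and 4.72 (log2 interaction 1.05, SE 0.228, adjusted p = 0.0023). Spliceosomal snRNA at 22 nt rose 2.95-fold and 4.73-fold, with means of 37.2 ± 6.69 rpm on MS against 109.8 ± 16.5 on MS-N in the wild type, and 31.6 ± 5.07 on MS against 149 ± 25.4 on MS-N in the mutant (SD, n = 3). Its interaction passed narrowly (log2 interaction 0.67, SE 0.244, adjusted p = 0.0393) and missed the threshold in most alternatives, among them the fit without Col-0 MS replicate 1 (adjusted p = 0.0719).

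Intergenic reads at 21 nt were 30202, 27879.7 and 27915 rpm on MS against 22247, 24062 and 24673 on MS-N in the wild type, and 21036, 23756 and 21935 on MS against 34348, 30592 and 36348 on MS-N in the mutant. Without nitrogen they fell in the wild type and rose in the mutant, and media did not overlap in either genotype (log2 interaction 0.88, SE 0.113, adjusted p = 5.74e-05). The observed mean of 33762 rpm was 1.84 times the product. At 22 nt the interaction of intergenic reads was -0.38 (adjusted p = 0.373) with all libraries. Without the first replicate of dcl4-2 on MS it was -0.79 and passed (adjusted p = 2.29e-05), so this value turns on 1 library.

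Untranslated regions of messengers had positive log2 interactions, and all but that of 3′ UTRs at 22 nt passed the threshold. The 5′ UTR class at 22 nt had means of 530.2 ± 26.0 rpm on MS against 566 ± 19.4 on MS-N in the wild type, and 418 ± 51.5 on MS against 802 ± 57.1 on MS-N in the mutant (SD, n = 3). The Col-0 media overlapped, the dcl4-2 media did not, and the nitrogen rise of 1.92-fold in dcl4-2 gave an interaction past the threshold (log2 interaction 0.85, SE 0.128, adjusted p = 0.000197). The 5′ UTR interaction at 21 nt was smaller (log2 interaction 0.51, SE 0.0881, adjusted p = 0.000504). The 3′ UTR class at 21 nt rose 1.33-fold in the wild type against 1.91-fold in the mutant (log2 interaction 0.51, SE 0.127, adjusted p = 0.00548), and at 22 nt it missed the threshold (log2 interaction 0.32, adjusted p = 0.0784). It passed there on the linear scale (869 rpm, adjusted p = 0.00186) and by permutation (adjusted p = 0.0467).

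Transposable elements at 22 nt, a class fed by other Dicer-like enzymes as well, were 17559.5, 21200.1 and 16174 rpm on MS against 30314, 29725 and 26198 on MS-N in the wild type, and 20289.7, 14922 and 13994 on MS against 16964, 18116 and 17548 on MS-N in the mutant. The Col-0 libraries on MS-N were all above those on MS, and the dcl4-2 media overlapped. The observed mean of 17543 rpm lay below the product of 25749 rpm (log2 interaction -0.54, SE 0.194, adjusted p = 0.0393). This call missed the threshold under several alternatives, among them the fit without Col-0 MS replicate 1 (adjusted p = 0.075).

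The tasiRNA class, taken here to overlap the exon class, had interactions of opposite sign at the 2 lengths. At 22 nt its reads were 985, 1177 and 901 rpm on MS against 2905, 2947 and 2724 on MS-N in the wild type, and 5709, 5523 and 5665 on MS against 12390.2, 12018 and 13183 on MS-N in the mutant. They rose 2.80-fold in the wild type against 2.22-fold in the mutant, no groups overlapped, and the interaction was negative (log2 interaction -0.34, SE 0.126, adjusted p = 0.0408). On the linear scale dcl4-2 gained more, and the observed mean was 5060.57 rpm above the sum of the single effects (adjusted p = 4.01e-06). At 21 nt the tasiRNA reads were 24358, 30874 and 23904 rpm on MS against 50329.6, 46185 and 40856 on MS-N in the wild type, and 1297, 1034 and 1053 on MS against 2521, 2638 and 2866 on MS-N in the mutant. Here the folds were 1.74 in Col-0 and 2.37 in dcl4-2, with a positive log2 interaction (log2 interaction 0.45, SE 0.174, adjusted p = 0.0461) and a linear value of -17864.1 rpm. Both tasiRNA calls on the log2 scale missed the threshold in most alternatives, including the fits without Col-0 MS replicate 1 (adjusted p = 0.0541 at 21 nt and 0.0865 at 22 nt).

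The classes that did not pass on the log2 scale include microRNA, which other Dicer-like enzymes make. MicroRNA reads had means of 85653 ± 8204 rpm on MS against 145602 ± 5189 on MS-N in the wild type, and 111687 ± 7732 on MS against 211199 ± 9553 on MS-N in the mutant (SD, n = 3) at 21 nt, with a log2 interaction of 0.15 (adjusted p = 0.273). On the linear scale the observed mean was 39563 rpm above the sum of the single effects at 21 nt (adjusted p = 0.0033) and 3500.4 rpm above it at 22 nt (adjusted p = 0.00222). At 22 nt the microRNA interaction was 0.18 (adjusted p = 0.155), and without the first replicate of dcl4-2 on MS it passed at 0.24 (adjusted p = 0.049). Promoter, intron and pseudogene classes at both lengths had log2 interactions of -0.11 to 0.16, none past the threshold, while on the linear scale promoter reads passed with -706 rpm at 21 nt (adjusted p = 0.018) and -1941 rpm at 22 nt (adjusted p = 0.0424).

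**Figure D2:**
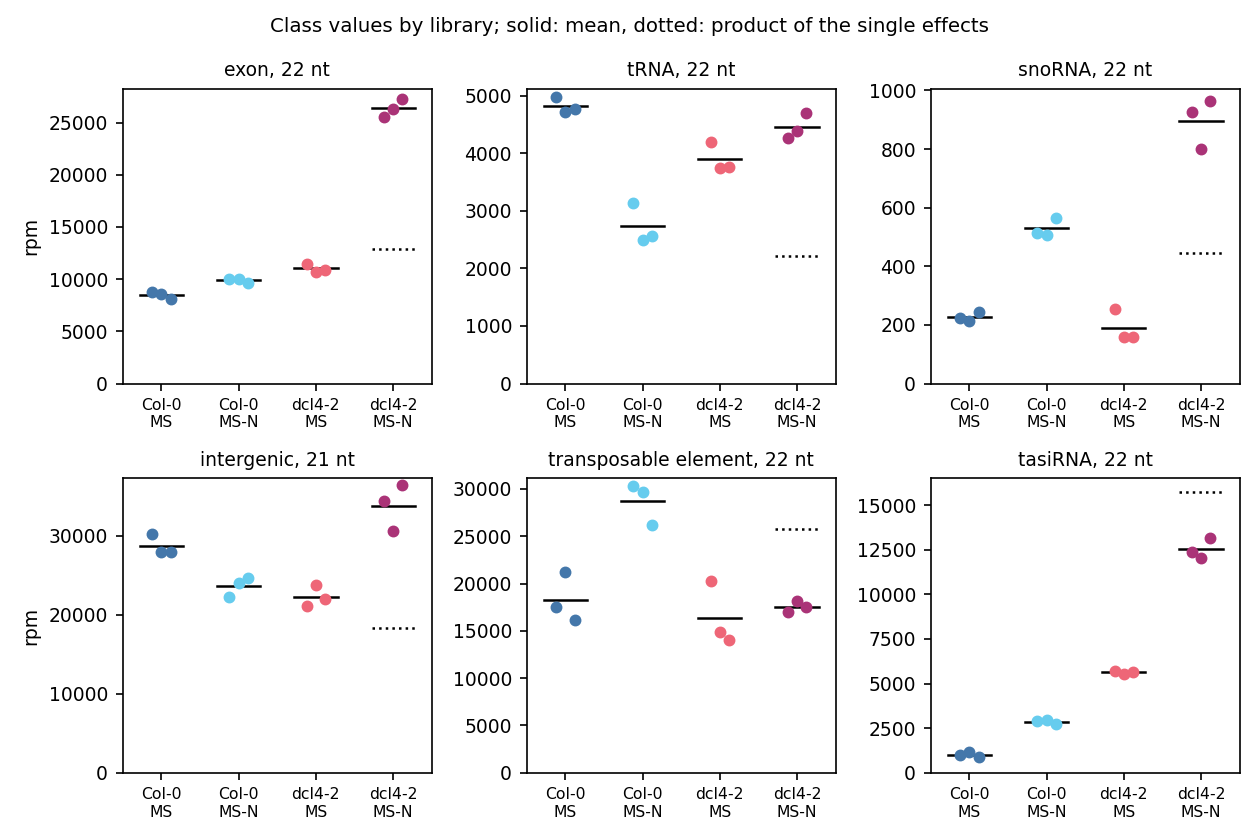
Values of 6 feature classes in rpm (y axis, from 0) in the 12 libraries, with points for replicates, solid lines for group means and a dotted line for the product of the single effects in dcl4-2 on MS-N. For exon, tRNA, snoRNA and intergenic reads the dcl4-2 libraries on MS-N lie above the dotted line, and for transposable element and tasiRNA reads at 22 nt below it.

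The ratio of 22-nt to 21-nt reads within a class compares the lengths inside each library and needs no scaling between libraries. Of 14 ratios, 5 had an interaction past an adjusted p of 0.05 in limma (35.7% of those tested, 2 positive or 14.3% and 3 negative or 21.4%). The tasiRNA ratio was 0.0405, 0.0381 and 0.0377 on MS against 0.0577, 0.0638 and 0.0667 on MS-N in the wild type, and 4.40, 5.34 and 5.38 on MS against 4.91, 4.56 and 4.60 on MS-N in the mutant. It rose in Col-0 on MS-N, while in dcl4-2 the media overlapped (log2 interaction -0.79, SE 0.117, adjusted p = 0.000753). As a share of both lengths, 22-nt tasiRNAs were 3.73% on MS and 5.90% on MS-N in the wild type, against 83.3 and 82.4% in the mutant. On the linear scale the interaction of this ratio did not pass (-0.38, adjusted p = 0.381).

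Exons took the other direction in the ratio, with 0.265, 0.215 and 0.248 on MS against 0.169, 0.182 and 0.195 on MS-N in the wild type, and 1.86, 1.93 and 1.903 on MS against 2.13, 2.14 and 2.06 on MS-N in the mutant. The ratio fell in Col-0 on MS-N and in dcl4-2 all MS-N libraries were above all MS libraries (log2 interaction 0.57, SE 0.107, adjusted p = 0.00253). Only the fall in Col-0 passed as a single effect (adjusted p = 0.00101, limma), with an adjusted p of 0.162 for dcl4-2. The sources used here do not state whether reads of the locus NIA2, described below, are counted in the exon class. If NIA2 reads are counted there and are taken out, the ratio of the exon means in dcl4-2 is 1.66 to 1.75 on MS-N. This is lower than the 1.896 on MS. The log2 interaction of the means is then 0.22 to 0.30, against 0.56 with all reads. Reads of tasiRNAs, taken to overlap the exon class, were not taken out in this step. The 5′ UTR ratio also had a positive interaction (log2 interaction 0.34, SE 0.0791, adjusted p = 0.00813). The 3′ UTR ratio had a negative one (log2 interaction -0.19, SE 0.0479, adjusted p = 0.0097), with mean ratios of 1.24 and 1.61 in the wild type and 1.72 and 1.95 in the mutant. Intergenic reads had the largest interaction of a ratio (log2 interaction -1.26, SE 0.345, adjusted p = 0.0128), with values of 1.03, 1.12 and 1.03 on MS against 1.65, 1.46 and 1.55 on MS-N in the wild type, and 1.26, 2.78 and 2.61 on MS against 1.27, 1.41 and 1.18 on MS-N in the mutant. The first dcl4-2 replicate on MS was low here, and the call held without each of the 12 libraries.

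Summed over 13 classes, with tasiRNA left out, the totals at 21 nt were 174874, 192088 and 165050.00 rpm on MS against 258345, 260737 and 243389 on MS-N in the wild type, and 174201, 162705 and 152193 on MS against 271893, 283695 and 295387 on MS-N in the mutant. The MS-N libraries were above the MS libraries in both genotypes, and the log2 interaction was 0.28 (permutation test with the mean genotype difference removed, 400 arrangements, p = 0.02, smallest possible 0.005, two-sided). Without microRNA the 21-nt total had a log2 interaction of 0.25 (p = 0.035, same permutation test), which missed the threshold without any of 6 single libraries, for example 0.20 without Col-0 MS replicate 2 (p = 0.065). For 22-nt totals the interaction was -0.07 (permutation p = 0.64), and for the 22-to-21 ratio of the totals it was -0.35 (permutation p = 0.09). Without the first dcl4-2 replicate on MS these were -0.19 (permutation p = 0.025) and -0.52 (permutation p = 0.005).

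At gene loci, 90 of 19392 tested had an interaction at 21 nt (0.464%), 77 positive (0.397%) and 13 negative (0.067%). At 22 nt 414 of 20152 had one (2.05%), 356 positive (1.77%) and 58 negative (0.288%), by limma with adjustment over all loci tested. The median log2 interaction over all loci was 0.23 at 21 nt and 0.34 at 22 nt, so a typical locus lay above 0 on the authors' scaling. Trimmed-mean scaling moved these medians to 0.13 and 0.18, and scaling to a common sum of the microRNA genes that could be split into libraries, called microRNA scaling below, to 0.30 and 0.12. That sum leaves out 26 microRNA genes at 21 nt and 6 at 22 nt, and it held 4.82 to 8.82% of the microRNA gene signal of a group at 21 nt and 39.3 to 45.7% at 22 nt. At 21 nt in dcl4-2 the means of the split genes summed to 65007 normalized reads on MS and 59996 on MS-N, while the microRNA class went from 111687 to 211199 rpm, so microRNA scaling at this length does not follow most microRNA reads. With trimmed-mean scaling 22 positive and 12 negative loci passed at 21 nt, and 190 positive and 156 negative at 22 nt. With microRNA scaling 193 positive and 6 negative passed at 21 nt, and 123 positive and 139 negative at 22 nt. The split of directions at 22 nt thus follows the scaling, and 180 of the 414 loci passed under all 3 scalings, 123 positive and 57 negative. Single libraries also set the counts: 2 loci passed at 21 nt without library 1 of Col-0 on MS and 216 without library 1 of dcl4-2 on MS. Without a variance trend in limma, 1 locus passed at 21 nt and 2 at 22 nt.

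**Figure D3:**
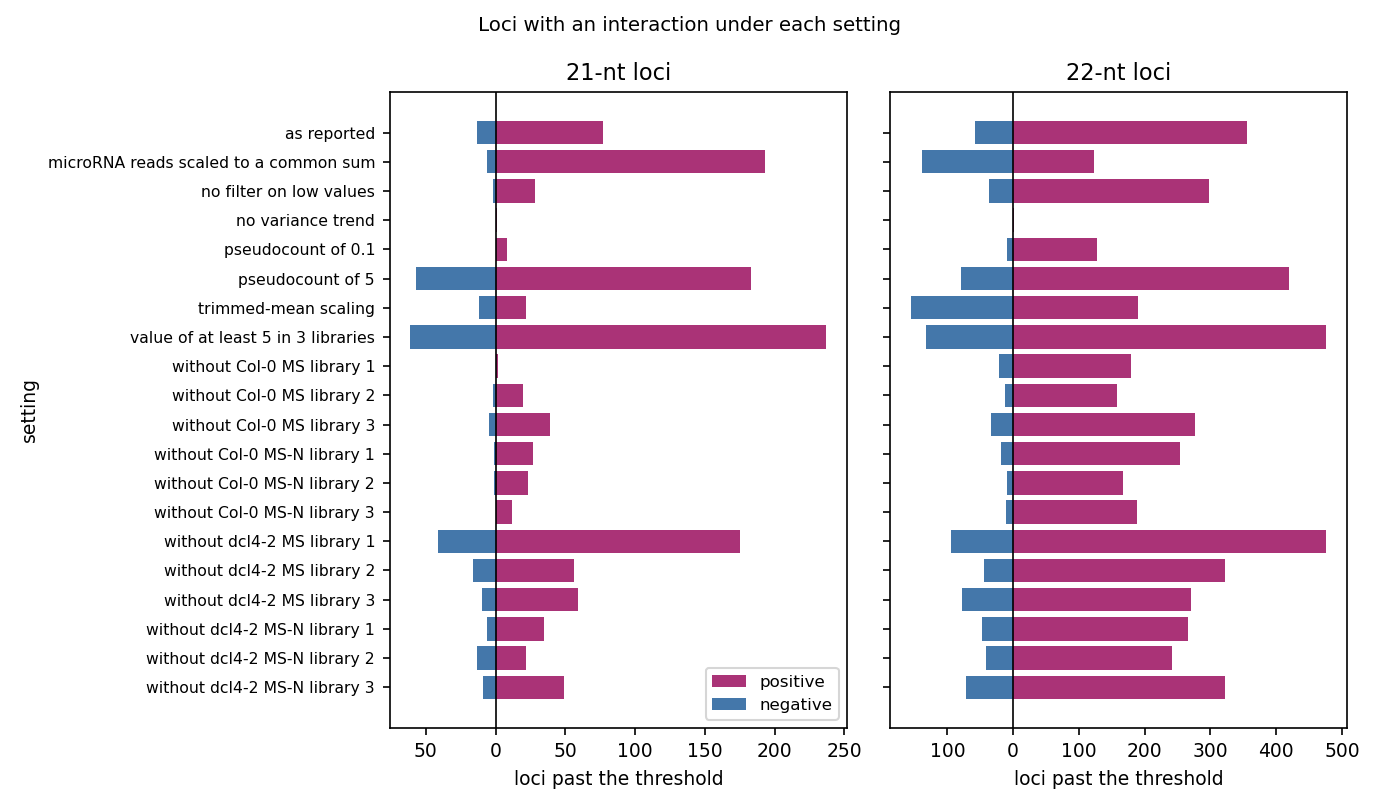
Number of loci past an adjusted p of 0.05 (x axis, positive to the right and negative to the left of 0) under each setting (y axis) at 21 nt and 22 nt. At 21 nt leaving out 1 library gave 2 to 216 loci and at 22 nt 171 to 570, against 90 and 414 with all libraries.

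Of the 356 positive loci at 22 nt, 222 had an estimate below 0 on MS-N in Col-0 and above 0 in dcl4-2. Another 78 were below 0 in both genotypes and 56 above 0 in both. Of the 58 negative loci, 50 had an estimate above 0 in Col-0 and below 0 in dcl4-2. At 21 nt 46 of the 77 positive loci and 9 of the 13 negative loci had such opposite estimates. Calls were made on the difference of these same estimates, which favours opposite signs, and the share over all loci was not counted. These counts are therefore a description. Pseudogenes, which are disabled gene copies, made up 43 of the 58 negative and 8 of the 356 positive loci at 22 nt, and 8 of 13 negative and 2 of 77 positive loci at 21 nt. They were 20.4% of the loci tested at 22 nt and 20.3% at 21 nt, and 1.24 and 0.254% of them passed in either direction. Loci that met the filter on low values through 1 group alone, with fewer than 3 libraries at 1 or more outside it, were 4 of the 356 positive and 1 of the 58 negative calls at 22 nt, and 2 of 77 and 1 of 13 at 21 nt.

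**Figure D4:**
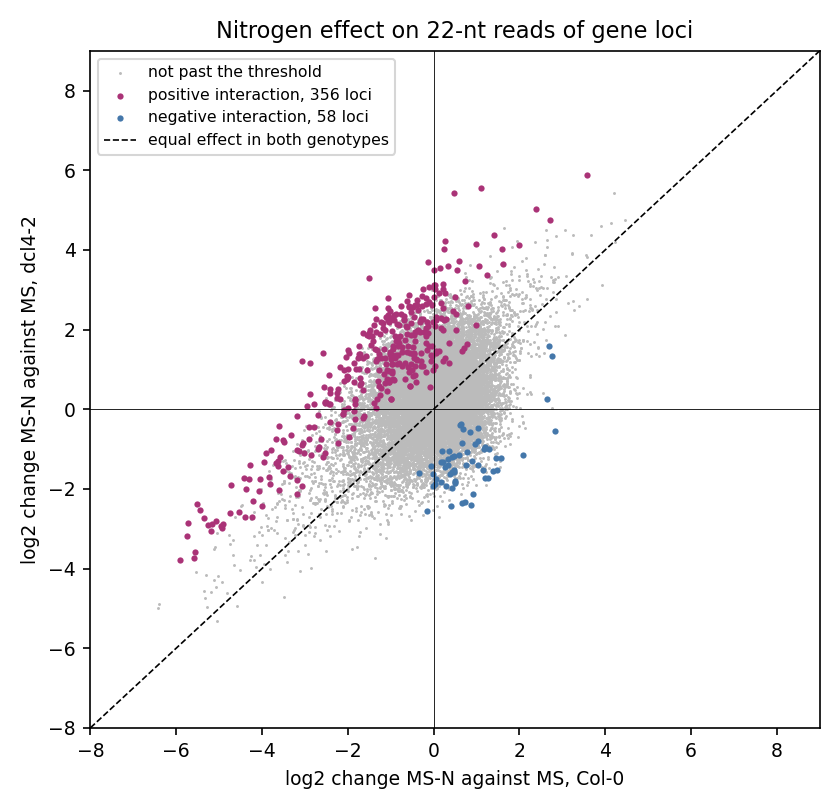
Log2 nitrogen effect on 22-nt reads in dcl4-2 (y axis) against that in Col-0 (x axis) for 20152 gene loci, from limma. The 356 loci with a positive interaction lie above the line of equal effects and the 58 with a negative one below it.

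NIA2 had the largest interaction at 21 nt of all loci tested. Its 21-nt reads were 65.1, 56.9 and 56.8 normalized reads on MS against 88.0, 61.2 and 64.8 on MS-N in the wild type, and 82.3, 39.0 and 29.7 on MS against 7277, 7258 and 10614 on MS-N in the mutant. The 3 dcl4-2 libraries on MS-N were far above the other 9, which overlapped. The nitrogen effect was 1.197-fold in the wild type against 167-fold in the mutant (log2 interaction 7.22, SE 0.341, adjusted p = 7.21e-25, limma), and NIA2 alone passed under every alternative at this length. At 22 nt the mean of dcl4-2 on MS-N could not be split into libraries, so no test was made there. The authors' means for NIA2 at 22 nt were 71.2, 108, 166 and 45734 normalized reads in that order, with a log2 interaction of the means of 7.499 and nitrogen effects of 1.52-fold and 275-fold. NIA2 made up 13.7% of the sum of all 22-nt locus values in dcl4-2 on MS-N and at most 0.0659% in the other groups.

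The exon class at 22 nt was read beside this locus. If the NIA2 reads are counted in that class, which the sources used here do not state, they correspond to 6613 to 8215 rpm, or 25.1 to 31.2% of the exon reads in dcl4-2 on MS-N. The exon class exceeded its product by 13494 rpm. With the NIA2 reads taken out of all groups, the log2 interaction of the exon means was between 0.50 and 0.62. For 21-nt reads the same step left 0.28 to 0.32, with NIA2 at 9.78 to 12.2% of the exon reads.

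The other nitrate reductase gene, NIA1, had an estimate of the opposite sign. Its 22-nt reads were 35.5, 54.0 and 24.6 normalized reads on MS against 96.6, 85.0 and 44.9 on MS-N in the wild type, and 254, 2152 and 1091 on MS against 581, 748 and 462 on MS-N in the mutant. All dcl4-2 libraries were above all Col-0 libraries, and the 2 media overlapped in dcl4-2. The interaction did not pass on the authors' scaling (log2 interaction -1.49, SE 0.495, adjusted p = 0.103) and passed with trimmed-mean scaling (adjusted p = 0.0343) and microRNA scaling (adjusted p = 0.0301). At 21 nt NIA1 had means of 22.8, 21.8, 294 and 125 normalized reads (log2 interaction -0.76, SE 0.507, adjusted p = 0.507).

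AT5G57130 and AT4G29920, further loci known from this study, belong to the SMXL family, whose members act in phloem formation. At AT5G57130 the 22-nt reads were 3.14, 5.09 and 7.90 normalized reads on MS against 0, 0.691 and 6.22 on MS-N in the wild type, and 28.9, 6.17 and 3.07 on MS against 56.8, 19.0 and 61.4 on MS-N in the mutant. The values in dcl4-2 were spread widely, MS and MS-N overlapped in both genotypes, and the interaction passed (log2 interaction 3.52, SE 0.807, adjusted p = 0.0114) but missed the threshold in 3 of the 12 fits that leave out a library. At AT4G29920 the 22-nt reads had means of 1.32, 2.32, 182 and 626 normalized reads and an interaction that did not pass (log2 interaction 1.49, SE 0.567, adjusted p = 0.16).

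Several of the 10 largest positive interactions at 22 nt belonged to loci with few reads outside dcl4-2 on MS-N. APR1 encodes APS reductase, an enzyme of sulfate assimilation, and its reads were 1.05, 0 and 4.39 normalized reads on MS against 0.754, 2.77 and 3.45 on MS-N in the wild type, and 1.07, 0 and 0 on MS against 63.7, 26.2 and 92.6 on MS-N in the mutant. Only the dcl4-2 libraries on MS-N held more than 4.39 normalized reads (log2 interaction 4.95, SE 0.827, adjusted p = 0.000251). NF-YA2 encodes a subunit of a CCAAT-binding transcription factor and is a target of miR169. Its reads were 0, 0 and 0 normalized reads on MS against 1.51, 0.691 and 1.38 on MS-N in the wild type, and 2.14, 0 and 0 on MS against 60.97, 63.0 and 81.4 on MS-N in the mutant. The 3 dcl4-2 libraries on MS-N stood clear of the other 9 (log2 interaction 4.44, SE 0.795, adjusted p = 0.000665). For both, a group compared held 3 or fewer reads, so no fold is given. Both calls held under both other scalings and without each library.

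AT1G47660 and AT5G35070, of which the second is annotated as a transcribed pseudogene, were also highest in dcl4-2 on MS-N, at higher levels. AT1G47660 held 9.41, 6.11 and 14.05 normalized reads on MS against 10.6, 13.8 and 10.4 on MS-N in the wild type, and 39.6, 7.20 and 8.19 on MS against 335, 226 and 267 on MS-N in the mutant. The dcl4-2 libraries on MS-N were above all others, with a nitrogen effect of 1.18-fold in the wild type against 15.0-fold in the mutant (log2 interaction 3.97, SE 0.530, adjusted p = 7.94e-06). AT5G35070 had means of 11.6, 10.8, 12.9 and 184 normalized reads (log2 interaction 3.84, SE 0.463, adjusted p = 6.61e-07).

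GTE7, a bromodomain protein gene, held 134, 155 and 133 normalized reads on MS against 11.3, 8.30 and 115 on MS-N in the wild type, and 25.7, 33.9 and 21.5 on MS against 159, 45.2 and 52.4 on MS-N in the mutant. In Col-0 on MS-N library 3 was close to the MS libraries while the other 2 were far lower, and every dcl4-2 library on MS-N was above those on MS. The interaction of GTE7 passed and held without each library (log2 interaction 3.99, SE 0.639, adjusted p = 0.000146). DGAT3, a diacylglycerol acyltransferase gene of oil synthesis, had means of 22.4, 2.78, 4.50 and 7.95 normalized reads (log2 interaction 4.06, SE 0.822, adjusted p = 0.00383). It fell in Col-0 on MS-N (adjusted p = 0.000445), and the dcl4-2 media overlapped. AT3G04210 had means of 3.33, 0.482, 0 and 8.89 (log2 interaction 4.82, SE 0.860, adjusted p = 0.000657) and passed under every alternative at 22 nt, with 22 reads behind its highest group. SERK5, a receptor kinase gene, had means of 2.35, 0.251, 0 and 4.86 (log2 interaction 3.89, SE 0.882, adjusted p = 0.0104) and met the filter on low values only through dcl4-2 on MS-N, and AT1G06760 had 8.85, 4.40, 2.79 and 21.7 (log2 interaction 3.86, SE 0.784, adjusted p = 0.00383). MIR857, described with the microRNA genes, completes the 10 largest.

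**Figure D5:**
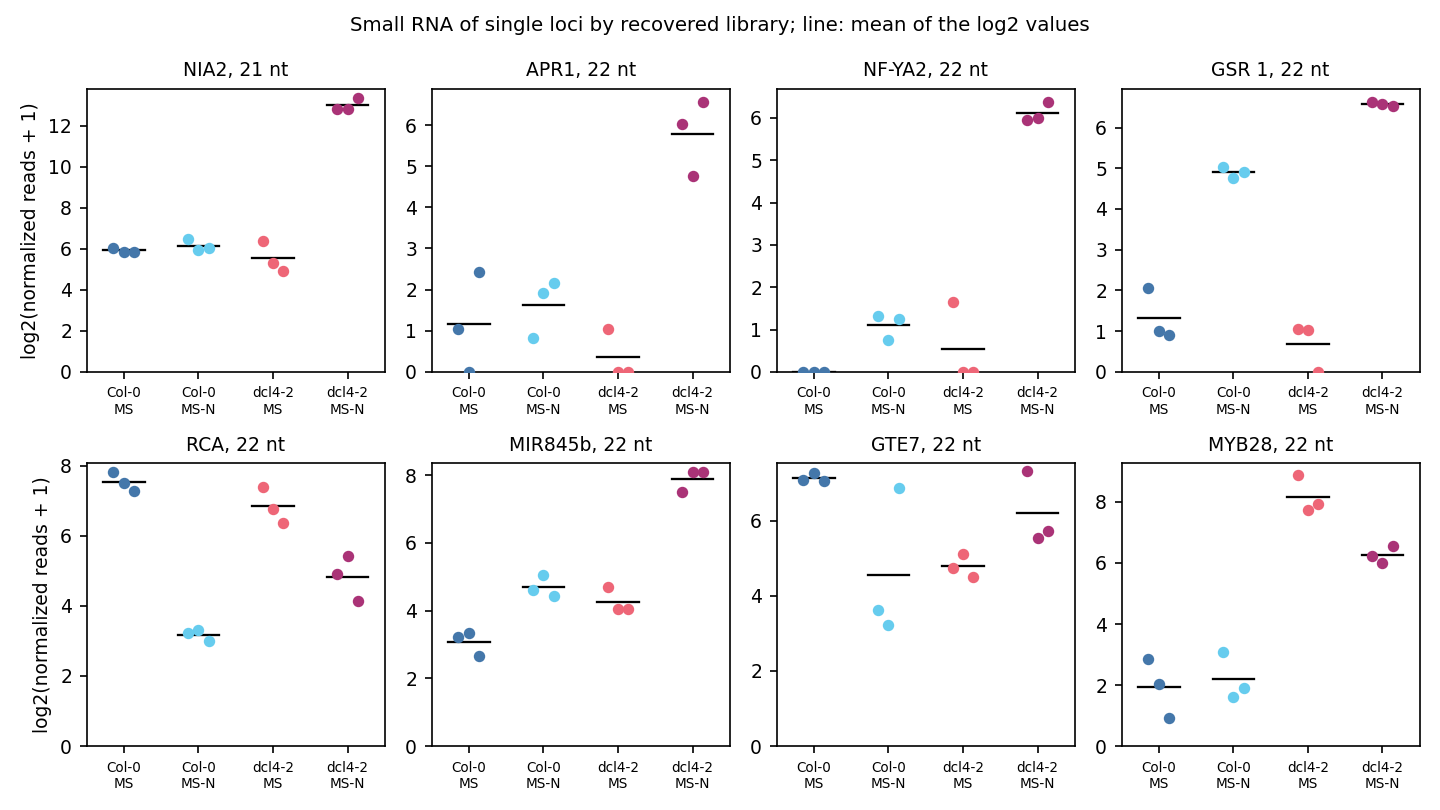
Small RNA of 8 loci, as log2 of normalized reads plus 1 (y axis), in each recovered library of the 4 groups, with lines for the mean of the log2 values. NIA2, APR1, NF-YA2, GSR 1 and MIR845b are highest in dcl4-2 on MS-N, RCA falls on MS-N in both genotypes and less in dcl4-2, and MYB28 is highest in dcl4-2 on MS.

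Genes of ammonium assimilation were the nitrogen genes past the threshold at 22 nt, 4 of 35 tested, all positive, beside 1.77% positive calls over all loci. The median log2 interaction was 0.90 over the list against 0.34 over all loci. GSR 1, a cytosolic glutamine synthetase, held 3.14, 1.02 and 0.878 normalized reads on MS against 31.7, 26.3 and 29.0 on MS-N in the wild type, and 1.07, 1.03 and 0 on MS against 97.0, 95.2 and 91.5 on MS-N in the mutant. The 22-nt reads rose on MS-N in both genotypes and the dcl4-2 libraries on MS-N were above all others (log2 interaction 2.31, SE 0.577, adjusted p = 0.0227). GSR2, a second cytosolic glutamine synthetase, had means of 14.8, 19.8, 10.5 and 59.8 (log2 interaction 1.99, SE 0.484, adjusted p = 0.0186). For glutamate synthase, GLU2 had means of 5.22, 22.2, 2.08 and 51.0 with an interaction of 2.15 (adjusted p = 0.024). GLU1, the main leaf form, fell on MS-N from 81.0 to 10.2 normalized reads in the wild type, and in the mutant from 47.8 to 21.1, with an interaction of 1.71 (adjusted p = 0.0148). All 4 kept their sign and missed the threshold under both other scalings, with adjusted p of 0.051 to 0.0598 for trimmed-mean scaling and 0.0976 to 0.12 for microRNA scaling. At 21 nt NIA2 was the only 1 of 36 nitrogen genes past the threshold, beside 0.397% positive calls over all loci.

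Nuclear photosynthesis genes had 11 positive and 0 negative interactions among 28 tested at 22 nt, with a median of 1.57 over the list, and 26 of 28 estimates were above 0. The median over all loci was 0.34, and 1.77% of all loci were positive calls. With trimmed-mean and microRNA scaling 9 and 8 passed, all positive. The median log2 nitrogen effect over the list was -5.07 in Col-0 and -3.39 in dcl4-2. RCA, Rubisco activase, held 226, 180.3 and 155 normalized reads on MS against 8.30, 8.99 and 6.91 on MS-N in the wild type, and 166, 108 and 80.9 on MS against 29.1, 41.6 and 16.7 on MS-N in the mutant. It fell in both genotypes, and its libraries on MS-N were higher in dcl4-2 than in Col-0 without overlap (log2 interaction 2.35, SE 0.397, adjusted p = 0.000287). LHCB4.1, a protein of the photosystem II antenna, had means of 97.2, 1.72, 48.4 and 7.83 (log2 interaction 2.92, SE 0.557, adjusted p = 0.00175).

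The small subunits of Rubisco, the enzyme that fixes carbon dioxide, followed RCA. RBCS1A had 22-nt means of 193, 3.77, 106 and 15.7 normalized reads (log2 interaction 2.61, SE 0.459, adjusted p = 0.000523). RBCS1B, RBCS2B and RBCS3B, near-identical copies between which reads may be shared, had interactions of 2.88, 2.27 and 2.12 (adjusted p = 0.00378, 0.017 and 0.0187). PSBO1, of the oxygen-evolving complex, had 2.15 (adjusted p = 0.0035) and FBA2, a chloroplast aldolase, 2.33 (adjusted p = 0.00383). At 21 nt 3 of 28 passed, all positive, beside 0.397% positive calls over all loci. They were RCA (2.34, adjusted p = 0.00515), PSBO1 (1.899, adjusted p = 0.0453) and GAPB, a chloroplast glyceraldehyde phosphate dehydrogenase (2.55, adjusted p = 0.0435). Of these only RCA also passed with trimmed-mean scaling, and all 3 with microRNA scaling.

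Chloroplast genome genes had 39 positive and 0 negative interactions among 88 tested at 22 nt, with a median of 1.42, against 1.77% positive calls and a median of 0.34 over all loci, and 24 and 21 passed under trimmed-mean and microRNA scaling. The largest, ATCG00560, held 94.1, 81.5 and 60.6 normalized reads on MS against 15.8, 10.4 and 15.9 on MS-N in the wild type, and 66.4, 46.3 and 32.8 on MS against 58.2, 73.7 and 56.9 on MS-N in the mutant. It fell in Col-0 on MS-N without overlap, while the dcl4-2 media overlapped (log2 interaction 2.82, SE 0.385, adjusted p = 1.12e-05). At 21 nt 0 of the 88 passed in limma (15 at an unadjusted p under 0.05) and the median was -0.17. Over all 19392 loci tested at 21 nt, 2832 had an unadjusted p under 0.05 in limma. Mitochondrial genome genes had 12 positive and 0 negative among 118 at 22 nt, with a median of 0.55 beside the same 1.77% and 0.34 over all loci, and 7 and 2 under the other scalings. At 21 nt 0 of 116 passed in limma (16 unadjusted). ATMG00280 was the largest of these, with means of 292, 20.2, 226 and 69.0 (log2 interaction 2.13, SE 0.322, adjusted p = 5.53e-05). The tRNA and rRNA classes, parts of which the organelles encode, had interactions of the same sign in the class table (1.02 and 0.86 at 22 nt), and their part in the organelle genes was not tested.

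The 21-nt loci with the largest positive interactions after NIA2 were of low level. FDH, mitochondrial formate dehydrogenase, held 26.9, 17.7 and 17.2 normalized reads on MS against 7.93, 0.672 and 0 on MS-N in the wild type, and 6.95, 14.5 and 10.6 on MS against 19.3, 16.2 and 12.1 on MS-N in the mutant. It fell in Col-0 on MS-N and the dcl4-2 media overlapped (log2 interaction 3.66, SE 0.688, adjusted p = 0.00515). PIP1;4, an aquaporin, had means of 10.1, 3.77, 3.67 and 19.6 (log2 interaction 3.64, SE 0.686, adjusted p = 0.00515). Both passed under both other scalings. The remaining 7 of the 10, REF6, AT3G24190, MAML-4, AGD6, AT3G47160, AT1G42960 and AT5G67630, had interactions of 3.40 to 3.72, means of 0 to 8.18 normalized reads and adjusted p of 0.0336 to 0.0484. Each of these 7 missed the threshold with trimmed-mean scaling (adjusted p of 0.0506 to 0.0675). REF6 and AT5G67630 met the filter on low values only through dcl4-2 on MS-N and missed the threshold with no filter (adjusted p = 0.0693 and 0.0806). PEN3 (AT1G59870), a plasma membrane transporter gene named here after its values were seen, kept its call at 21 nt without each of the 12 libraries. The means at PEN3 were 118, 43.5, 58.4 and 152 normalized reads, with a log2 interaction of 2.82 (SE 0.371, adjusted p = 2.60e-06, limma).

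MicroRNA genes had 13 positive and 0 negative interactions among 138 tested at 22 nt, with a median of 0.27, and 2 positive and 2 negative among 126 at 21 nt. Over all loci 1.77% were positive calls and the median was 0.34 at 22 nt, and 0.397% were positive calls at 21 nt. The 126 do not include the 26 microRNA genes that could not be split, which held most of the 21-nt microRNA signal. With trimmed-mean scaling 3 positive and 1 negative passed at 22 nt, and with microRNA scaling 1 and 1, so most of these calls rest on the scaling. At 21 nt the same scalings gave 1 positive and 2 negative, and 5 positive and 0 negative. The microRNAs of the main loci are shown to set their annotated length against the length measured, from the RefSeq annotation of TAIR10.1, 5′ to 3′, with the seed (bases 2 to 8) in capitals. Locus reads do not say which arm they come from.
ath-miR845a: cGGCUCUGauaccaauugaug
ath-miR845b: uCGCUCUGauaccaaauugaug
ath-miR447a-3p: uUGGGGACgagauguuuuguug
ath-miR447b: uUGGGGACgagauguuuuguug
ath-miR833a-5p: uGUUUGUUguacucggucuagu
ath-miR833a-3p: uAGACCGAugucaacaaacaag
ath-miR850: uAAGAUCCggacuacaacaaag
ath-miR857: uUUUGUAUguugaagguguau
ath-miR863-3p: uUGAGAGCaacaagacauaau
The annotated lengths are 22 nt for miR845b, miR447a-3p, miR447b, both arms of miR833a and miR850, and 21 nt for miR845a, miR857 and miR863-3p. The seeds of miR447a-3p and miR447b are the same, and their genes gave nearly equal counts.

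The miR845 family matches the primer-binding site of retrotransposons. MIR845b at 22 nt, the length of its mature microRNA, held 8.36, 9.17 and 5.27 normalized reads on MS against 23.4, 31.8 and 20.7 on MS-N in the wild type, and 24.6, 15.4 and 15.4 on MS against 180.2, 269 and 269 on MS-N in the mutant. It rose on MS-N in both genotypes, and the dcl4-2 libraries on MS-N were above all others. The nitrogen effect was 3.33-fold in the wild type against 12.9-fold in the mutant (log2 interaction 2.01, SE 0.415, adjusted p = 0.00429), and with microRNA scaling the adjusted p was 0.0591. MIR845a at 21 nt was not tested, since its mean in dcl4-2 on MS-N could not be split. The authors' means for MIR845a were 3040.2, 3562, 4416 and 27893 normalized reads, a nitrogen effect of 1.17-fold in the wild type against 6.32-fold in the mutant, with a log2 interaction of the means of 2.43.

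MIR833a at 22 nt held 188, 229 and 234 normalized reads on MS against 183, 188 and 158 on MS-N in the wild type, and 265, 102 and 118 on MS against 344, 277 and 315 on MS-N in the mutant. Media of dcl4-2 did not overlap, those of Col-0 almost met, and the interaction passed (log2 interaction 1.37, SE 0.296, adjusted p = 0.00629). MIR447a held means of 266, 181, 267 and 378 (log2 interaction 1.14, SE 0.273, adjusted p = 0.0171), and MIR447b was its near-identical copy with 1.14. MIR850 fell on MS-N from 811 to 38.4 normalized reads in the wild type, and in the mutant from 918 to 103 (log2 interaction 1.69, SE 0.436, adjusted p = 0.0275). Library 1 of dcl4-2 on MS held 1961 normalized reads at MIR850 and library 2 of that group 494. MIR857, whose mature form is 21 nt, had 22-nt means of 20.7, 1.68, 4.60 and 8.80 and passed under both scalings (log2 interaction 4.27, SE 0.713, adjusted p = 0.000251). MIR863 passed at both lengths, with 2.23 at 21 nt (adjusted p = 0.0137) and 2.20 at 22 nt (adjusted p = 0.0414), and MIR781a had 1.63 (adjusted p = 0.0491). At 22 nt MIR447a, MIR447b, MIR850, MIR863 and MIR781a missed the threshold under both other scalings, and MIR833a with microRNA scaling (adjusted p = 0.11).

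At 21 nt MIR849 rose on MS-N in dcl4-2, with means of 15.8, 27.0, 17.2 and 113 (log2 interaction 2.00, SE 0.472, adjusted p = 0.0425). MIR156f, of the family that controls the juvenile phase, had a negative interaction. Its 21-nt reads were 375, 361 and 443 normalized reads on MS against 101, 107 and 117 on MS-N in the wild type, and 739, 2424 and 1985 on MS against 179, 171 and 141 on MS-N in the mutant. It fell on MS-N in both genotypes, from the highest levels in dcl4-2 on MS, where library 1 was lower than the other 2 (log2 interaction -1.38, SE 0.333, adjusted p = 0.0435). MIR836 had reads almost only in dcl4-2 on MS, with means of 0.287, 0.240, 15.2 and 0 (log2 interaction -3.64, SE 0.921, adjusted p = 0.0484). It met the filter on low values only through that group, missed the threshold with no filter (adjusted p = 0.0775) and without each library of the other 3 groups, and was not tested without a library of its own group, so its call is not relied on. MIR849 missed the threshold with trimmed-mean scaling (adjusted p = 0.071) and MIR156f with microRNA scaling (adjusted p = 0.171). With no filter on low values both missed it (adjusted p = 0.0612 and 0.0571, limma). Of the 12 fits that leave out a library, MIR849 kept its call in 2 and MIR156f in 1.

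Among abundant microRNA genes given as the authors' means at 21 nt, with no test, MIR398c had 10386, 859, 13568 and 2159.8 normalized reads and a log2 interaction of 0.94. MIR319b had means of 1269, 7008, 5027 and 14506 and an interaction of the means of -0.94. MIR159b had 0.68 at 21 nt and 0.88 at 22 nt, MIR403 0.47 and -0.15, and MIR167a 0.46 at 21 nt. The loci left out of the tests in this way numbered 27 at 21 nt, 26 of them microRNA genes, and 8 at 22 nt. They held 56.9 to 86.0% of the summed 21-nt locus values of a group. At 22 nt they held 2.74 and 20.6% (wild type, MS before MS-N) and 10.04 and 42.2% (mutant).

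Negative interactions at protein-coding loci were few. MYB28, a regulator of aliphatic glucosinolate synthesis, held 22-nt reads of 6.27, 3.06 and 0.878 normalized reads on MS against 7.54, 2.07 and 2.76 on MS-N in the wild type, and 467, 213 and 242 on MS against 73.4, 63.0 and 92.6 on MS-N in the mutant. The dcl4-2 libraries were above all Col-0 libraries, and on MS-N they fell below all dcl4-2 libraries on MS (log2 interaction -2.20, SE 0.533, adjusted p = 0.018). The call held under both other scalings. With a pseudocount of 0.1 MYB28 missed the threshold (adjusted p = 0.152, limma). Its call was also lost when MS library 3 of the wild type was left out (-1.69, adjusted p = 0.0824). The same happened for MS-N library 1 of that genotype (-1.76, adjusted p = 0.105). TCP2, a leaf growth regulator and miR319 target, had 1.05, 0 and 0 normalized reads on MS against 2.26, 2.07 and 3.45 on MS-N in the wild type, and 176, 20.6 and 23.5 on MS against 20.8, 10.7 and 14.5 on MS-N in the mutant. Library 1 of dcl4-2 on MS was high against the other libraries of its group, and the dcl4-2 media overlapped (log2 interaction -3.00, SE 0.751, adjusted p = 0.0227). The TCP2 call was kept in 5 of the 12 fits that leave out a library, and without library 1 of dcl4-2 on MS the interaction was -2.02 (adjusted p = 0.125). At 21 nt AT1G03940, an anthocyanin acyltransferase gene, held 0, 1.87 and 0 normalized reads on MS against 44.0, 61.8 and 42.6 on MS-N in the wild type, and 1.16, 0 and 0 on MS against 6.88, 2.31 and 5.49 on MS-N in the mutant. It rose in both genotypes and the Col-0 libraries on MS-N were above all others (log2 interaction -3.03, SE 0.766, adjusted p = 0.0484), and with trimmed-mean scaling the adjusted p was 0.0532. The AT1G03940 call was kept in 3 of the 12 fits that leave out a library. It missed the threshold with no filter (adjusted p = 0.0693, limma) and with a pseudocount of 0.1 (adjusted p = 0.442).

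The 10 largest negative interactions at 22 nt held 7 pseudogenes, AT5G33254, AT1G43290, AT5G30218, AT5G34749, AT5G32702, AT5G34520 and AT4G06654. Their means were at most 14.2 normalized reads and their interactions ran from -3.27 to -2.93, with adjusted p of 0.0224 to 0.0476, and each kept its call in 2 to 8 of the 12 fits that leave out a library. In these 7 the highest mean was in dcl4-2 on MS except at AT5G34520, where it was in Col-0 on MS-N. AT1G69160 and AT1G33607 held 0 reads in Col-0 on MS and had interactions of -3.38 and -3.23. Both missed the threshold with no filter on low values (adjusted p = 0.0608 and 0.0723, limma) and in most fits that leave out a library. AT1G33607 also missed it with a pseudocount of 5 (adjusted p = 0.0669, limma). At 21 nt the pseudogene of the self-incompatibility receptor kinase, PSEUDOSRKA, had means of 36.4, 16.0, 29.6 and 1.52, and its dcl4-2 libraries on MS-N were below all others (log2 interaction -2.70, SE 0.576, adjusted p = 0.0158). Other negative loci at 21 nt, AT5G29408, AT5G29020, AT2G19300, AT1G36810, AT5G52065, AT2G06904 and AT5G28253, had means of at most 23.2 and interactions of -3.51 to -2.39. Each of these kept its call in 1 to 8 of the 12 fits that leave out a library. With microRNA scaling PSEUDOSRKA (adjusted p = 0.0634), AT5G29020, AT2G19300, AT1G36810, AT5G52065 and AT2G06904 missed the threshold, and AT2G19300 also did so with trimmed-mean scaling (adjusted p = 0.0532).

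Lists of genes tied to siRNA production were read against the 2.05% of all loci that passed at 22 nt and the 0.464% at 21 nt. An unadjusted p under 0.05 in limma was held by 3354 of 20152 loci at 22 nt and 2832 of 19392 at 21 nt. Of secondary siRNA sources, 0 of 44 passed at 22 nt in limma (6 at an unadjusted p under 0.05), with a median of 0.35. At 21 nt 1 of 42 passed (15 unadjusted), with a median of 0.67. The 1 locus was AT5G43740, with 21-nt reads of 521, 568 and 595 normalized reads on MS against 155, 179 and 151 on MS-N in the wild type, and 147, 83.7 and 85.8 on MS against 102, 62.5 and 85.7 on MS-N in the mutant. It fell in Col-0 on MS-N without overlap, and the dcl4-2 media overlapped (log2 interaction 1.48, SE 0.324, adjusted p = 0.0205). With trimmed-mean scaling its adjusted p was 0.0644. In limma, RNA silencing genes had 0 of 17 past the threshold at 22 nt (6 unadjusted) and 0 of 16 at 21 nt (3 unadjusted), with medians of 0.56 and 0.55. HD-ZIP III genes had 0 of 5 at both lengths (0 unadjusted at 22 nt and 2 at 21 nt). Anthocyanin genes had 0 of 12 at 22 nt (3 unadjusted) and 1 of 11 at 21 nt. Of 8 precursor genes of tasiRNAs, 0 were among the loci read here at either length, so they were not analysed. Among sulfur and glucosinolate genes 2 of 8 passed at 22 nt, APR1 and MYB28 in opposite directions, and among NF-YA genes 1 of 9, NF-YA2.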

How the data were processed

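Small RNA of 12 libraries was analysed from the deposited tables. Reads were aligned with Bowtie 1.2.2 and SAMtools 1.9 to TAIR10, per the submitters' processing notes, and the counting rule and the authors' test are not given in the sources used here. Class values are rpm of each library, as deposited by the authors under the header TPM. Locus values are a normalized signal, averaged over the 3 libraries of a group by the authors. The deposited log2 ratios and the deposited p-values of the authors were not used in the tests. Each group mean was split into 3 library values, which are whole reads times a step, and kept where chance combinations numbered at most 0.01. The split was checked on means simulated after each group and length (16858 to 20972 a table), and every split made was right. In the deposited means 92.8 to 99.2% of low values were exact steps, lowest in dcl4-2 on MS-N at 22 nt. Recovered libraries carry no replicate number, and those of 21 and 22 nt cannot be matched.

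Linear models in limma (3.58.1, under R 4.3.3) gave the interactions, for loci on log2(value + 1), using loci with a value of at least 1 in 3 libraries, and on log2 rpm for classes, with Benjamini-Hochberg adjustment over all features. Such folds understate changes of low loci. Totals had a permutation test of 400 arrangements, which is approximate. In simulated data (19307 loci at 21 nt and 20030 at 22 nt) an interaction was put into 100 loci per effect size and length. These loci had means of at least 10, and the spread was assumed. Of log2 interactions of 4, 91% were recovered at 21 nt and 94% at 22 nt, and 43 and 37% of those of 2. The median mean of the real loci was 1.73 at 21 nt and 1.88 at 22 nt, so these rates do not describe a typical locus. The tables held 32420 loci, of which 31722 matched the RefSeq annotation of TAIR10.1. Python 3.11.15, numpy 2.4.6 and pandas 2.3.3 were also used. Nothing states that replicates came from separate cultures, so p-values measure the spread between these samples. Members, lists and named loci were chosen with earlier results of these data known. Named loci were the 10 largest in each direction, up to 8 passing members of each list, the 6 largest unsplit loci, DCL4 and loci the study is known for.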

Additional observations from a re-analysis of the deposited data

Results flagged for a closer look

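The results below had a nitrogen effect that differed between dcl4-2 and Col-0 by the test of the difference itself, at an adjusted p under 0.05 in limma or, for totals, a permutation p under 0.05. All values are log2 interactions, and the limits given above for single calls hold here too. MIR836, REF6, AT5G67630 and SERK5 met the filter on low values only through the group where they are highest. The call at MIR836 is not relied on.

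Among classes at 22 nt they were 1.03 for exon, 1.02 for tRNA, 0.85 for 5′ UTR, 0.86 for rRNA, 1.05 for snoRNA, -0.54 for transposable element, 0.67 for snRNA and -0.34 for tasiRNA. At 21 nt they were 1.25 for tRNA, 0.88 for intergenic, 0.51 for 5′ UTR, 0.93 for snoRNA, 0.51 for 3′ UTR, 0.47 for exon and 0.45 for tasiRNA.

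The 22-to-21 ratios had -0.79 for tasiRNA, 0.57 for exon, 0.34 for 5′ UTR, -0.19 for 3′ UTR and -1.26 for intergenic. The totals had 0.28 for all 21-nt reads and 0.25 for 21-nt reads without microRNA.

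Loci at 21 nt had 7.22 for NIA2, 3.72 for REF6, 3.66 for FDH, 3.65 for AT3G24190, 3.64 for PIP1;4, 3.60 for MAML-4, 3.58 for AGD6, 3.54 for AT3G47160, 3.40 for AT1G42960 and 3.40 for AT5G67630. Then came -3.64 for MIR836, -3.51 for AT5G29408, -3.10 for AT5G29020, -3.03 for AT1G03940, -2.86 for AT2G19300, -2.70 for PSEUDOSRKA, -2.51 for AT1G36810, -2.47 for AT5G52065, -2.44 for AT2G06904 and -2.39 for AT5G28253. Next were 1.48 for AT5G43740, 2.55 for GAPB, 2.34 for RCA, 1.899 for PSBO1, 2.23 for MIR863, 2.00 for MIR849 and -1.38 for MIR156f.

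Loci at 22 nt had 4.95 for APR1, 4.82 for AT3G04210, 4.44 for NF-YA2, 4.27 for MIR857, 4.06 for DGAT3, 3.99 for GTE7, 3.97 for AT1G47660, 3.89 for SERK5, 3.86 for AT1G06760 and 3.84 for AT5G35070. Then came -3.38 for AT1G69160, -3.27 for AT5G33254, -3.23 for AT1G33607, -3.07 for AT1G43290, -3.06 for AT5G30218, -3.01 for AT5G34749, -3.01 for AT5G32702, -3.00 for TCP2, -2.93 for AT5G34520 and -2.93 for AT4G06654. Next were 3.52 for AT5G57130, 2.31 for GSR 1, 2.15 for GLU2, 1.99 for GSR2, 1.71 for GLU1, -2.20 for MYB28, 2.92 for LHCB4.1, 2.88 for RBCS1B, 2.61 for RBCS1A and 2.35 for RCA. These were followed by 2.33 for FBA2, 2.27 for RBCS2B, 2.15 for PSBO1, 2.12 for RBCS3B, 2.20 for MIR863, 2.01 for MIR845b, 1.69 for MIR850, 1.63 for MIR781a, 1.37 for MIR833a and 1.14 for MIR447a. The last were 1.14 for MIR447b, 2.82 for ATCG00560 and 2.13 for ATMG00280.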

How the results depend on the processing

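Class interactions of tRNA, snoRNA and 5′ UTR at both lengths, of exon and rRNA at 22 nt and of intergenic and 3′ UTR reads at 21 nt kept direction and threshold under every alternative run. The counts of classes past the threshold were 13 with the replicate block, 19 on the linear scale, 12 by permutation, 13 as shares of non-microRNA reads and 11 to 17 leaving out 1 library, against 15. For ratios they were 5, 4 and 6 (block, linear, permutation) and 5 to 7, against 5. On the linear scale exon at 21 nt (-12765 rpm), tasiRNA at 21 nt (-17864 rpm), tasiRNA at 22 nt (5061 rpm) and intron at 22 nt (-43.5 rpm) took the opposite sign.

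At 21 nt the locus count was 34 with trimmed-mean scaling, 199 with scaling to the split microRNA genes, 1 without variance trend, 8 with a pseudocount of 0.1, 240.0 with 5, 30 with no filter, 298 with at least 5 in 3 libraries and 2 to 216 leaving out 1 library, against 90. At 22 nt it was 346, 262, 2, 138, 498, 335, 609 and 171 to 570 in the same order, against 414. The cause was not tested. The microRNA ratio turned to -0.00248, -0.028 and -0.021 without Col-0 MS replicate 1, Col-0 MS-N replicate 2 and dcl4-2 MS-N replicate 1 (range over libraries -0.028 to 0.092), and the rRNA ratio to -0.037 and -0.000529 without replicate 3 of dcl4-2 on MS and on MS-N (highest 0.34). The 22-nt totals turned to 0.026 and, without microRNA, 0.0028 without dcl4-2 MS replicate 2.

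Without dcl4-2 MS replicate 1 the 22-nt total (-0.19), that without microRNA (-0.26) and the total ratio (-0.52, from -0.25 without dcl4-2 MS replicate 2) passed by permutation. The 21-nt total without microRNA was 4243 rpm on the linear scale (permutation p = 0.4) and 0.20 to 0.31 leaving out 1 library. With the replicate block the 21-nt total was 0.28 and that without microRNA 0.25, at the smallest p possible (exact sign-flip p = 0.25). Same-numbered libraries had deviations correlated from -0.52 to 0.78 over 18 pairs, 7 of them over 0.1. These do not show pairing, the numbers were not used to pair samples, and a shared batch was not tested. For loci, no paired analysis was possible because the recovered libraries carry no replicate number. The planned edgeR tests were not run, since the recovered values were not accepted as counts.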
